A study of Mus musculus with 6 samples.

Results

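Interferon response and antigen presentation genes were followed in primary mouse hepatocytes kept under normoxia or hypoxia. The list held 44 genes, namely 20 genes of the type I interferon response, 3 cytosolic RNA sensors, 6 transcription factors, 9 immunity GTPases, 5 antigen presentation genes and *9930111J21Rik2*, for which no role is stated here. A gene was taken from a row of the expression table whose only gene symbol was that of the gene, and 40 of the 44 genes were found in this way, each on 1 row. *Ifit3*, *Mx1*, *Gbp6* and *Tgtp1* were not analysed here. The table held 15443 rows, of which 13906 carried 1 symbol, and 13730 genes were named in all.

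Hepatocytes were isolated by collagenase perfusion from the livers of 3 wildtype C57BL/6 mice of 8 to 12 weeks and plated on collagen. The cells of each mouse were cultured at 19.5% O2 (normoxia) and at 1% O2 (hypoxia), which gave 3 arrays per condition and 6 Affymetrix Mouse Gene 2.0 ST arrays in all. Both groups were kept in the same medium, phenol red-free Williams E with L-glutamine and antibiotics, and no interferon is listed among its components. The labels give 72 h of exposure, whereas the methods give a shorter time, a slightly different oxygen level for normoxia, a narrower age range and male C57BL/6N mice, and the expression values do not settle which is right. Values are RMA expression on the log2 scale, so that a difference of 1 is a 2-fold change, and differences are given as hypoxia minus normoxia.

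Interferons are secreted proteins by which infected or stimulated cells warn their neighbors. Type I interferons bind a receptor made of IFNAR1 and IFNAR2, type II interferon binds IFNGR1 and IFNGR2, and the kinases JAK1, JAK2 and TYK2 attached to these receptors pass the signal on to STAT proteins. A complex that holds STAT2 and IRF9 then binds the interferon-stimulated response element (ISRE) of its target genes, and the gamma-activated sequence (GAS) is the element of the type II response. The targets include proteins that bind viral RNA or block its copying, GTPases that attack the vacuoles of intracellular parasites, and the machinery which loads peptides on major histocompatibility complex (MHC) molecules. In the liver, hepatocytes respond to both types of interferon and carry MHC class I on their surface, whereas MHC class II belongs mainly to immune cells.

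The promoters of the genes were searched for these 2 elements, and the search was decided after expression values had been seen. Sequence was not used to choose the genes. Most were listed for their part in the interferon response, however, so the list and these elements are not independent. RefSeq (GRCm38.p6) windows from 250 bases before to 50 bases after the transcription start were matched for 31 of the 40 measured genes, with none for *Oas2*, *Mx2*, *Usp18*, *Parp9*, *Parp14*, *Dhx58*, *Iigp1*, *Tap2* and *Cd74*. The ISRE core was searched as GAAA, any 2 bases and GAAA again, and GAS was searched as TTCNNNGAA, on both strands and with overlaps allowed. The core of the ISRE was found in 15 of the 31 genes (48.4%), compared to 3.99% of 27025 genes with a promoter in RefSeq. GAS was found in 10 of the 31 (32.3%), compared to 9.55% of all genes. A match describes letters in a window and is not a measured binding site.

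The stretches below are those to which the array results return. They are read 5′ to 3′ on the strand of the gene, and capitals mark the GAAA half-sites of the ISRE core (TTTC where the core lies on the other strand) and the outer letters of GAS. *Irgm2* (chr11:58214894-58214930, plus strand) and *Igtp* (chr11:58199503-58199539, plus strand) carry GAS and an ISRE core side by side, *Irgm1* (chr11:48871427-48871458, minus strand) carries 2 overlapping ISRE cores, and *Ifit1* (chr19:34640777-34640821, plus strand) carries 2 separate ones. *Isg15* (chr4:156200867-156200904, minus strand) has 3 overlapping ISRE cores, and *Stat2* (chr10:128270268-128270293, plus strand), *Rsad2* (chr12:26456555-26456580, minus strand) and *B2m* (chr2:122147540-122147565, plus strand) have 1 each.
Irgm2: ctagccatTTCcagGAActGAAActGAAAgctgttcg
Igtp: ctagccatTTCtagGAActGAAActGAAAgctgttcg
Irgm1: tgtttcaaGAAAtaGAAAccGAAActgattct
Ifit1: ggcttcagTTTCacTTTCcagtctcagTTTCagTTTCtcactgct
Isg15: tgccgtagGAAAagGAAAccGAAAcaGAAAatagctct
Stat2: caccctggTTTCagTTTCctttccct
Rsad2: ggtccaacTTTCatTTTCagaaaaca
B2m: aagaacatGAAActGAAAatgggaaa

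Of the 40 measured genes, 15 were lower and 2 were higher under hypoxia, and 23 did not pass the test. The test was limma (lmFit and eBayes) on condition alone, with p-values adjusted over all 15443 rows and a threshold of 0.05. Among all rows, 23.9% were lower and 15.5% were higher. The listed genes thus held a larger share of lower calls and a smaller share of higher calls than the whole table. They were chosen with earlier results of these data known, so no test was run on these shares. A decrease of at least 2-fold that passed the test was found for 11 of the 40 genes, compared to 8.24% of all rows. All 3 hypoxic arrays lay below all 3 normoxic arrays for 18 genes and above them for 5 genes, with 31.9% and 22.4% of all rows. The median difference of the 40 genes was -0.29 and that of all rows was -0.05. Leaving out mouse 2 left 9 of the 17 calls, 8 lower and 1 higher, and these 9, marked below, also passed in every other alternative in which they were tested. Leaving out mouse 3 ended the calls of *Ifit1*, *Ifi44*, *Parp9*, *Ddx58* and *Irf1*, and leaving out the normoxic array of mouse 2 ended those of *Ifit1*, *Ifi44*, *Parp9*, *Ddx58* and *Rsad2*. The precision of all values is set by the small number of arrays.

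**Figure D1:**
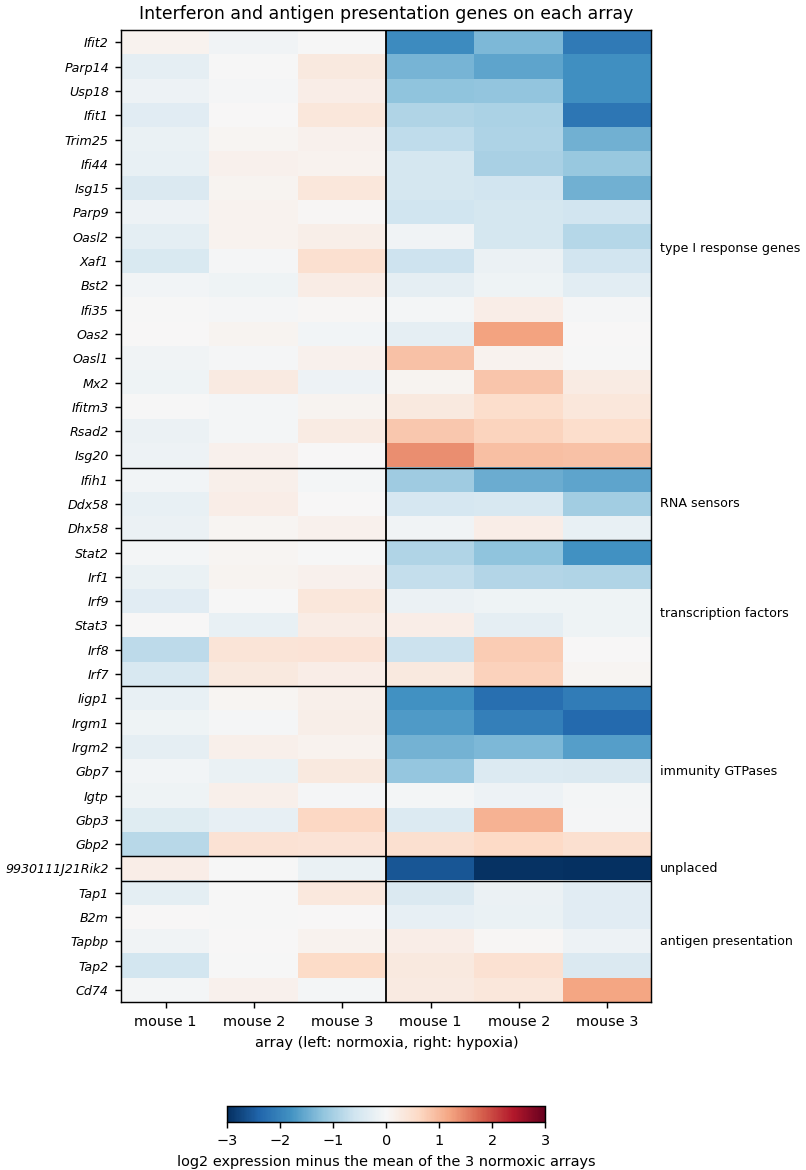
Log2 expression of the 40 measured genes (rows, grouped by role) on the 6 arrays (columns, 3 normoxic at the left and 3 hypoxic at the right), coloured by the difference from the mean of the 3 normoxic arrays of the gene. Blue blocks across all 3 hypoxic arrays mark genes such as *Iigp1*, *Irgm1* and *9930111J21Rik2*, whereas the antigen presentation genes at the bottom stay pale apart from *Cd74* in mouse 3.

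The largest difference of any gene on the list was that of *9930111J21Rik2*. Its log2 expression was 9.18, 8.95 and 8.78 in mouse 1, 2 and 3 under normoxia and 6.41, 6.00 and 5.80 under hypoxia. The lowest normoxic array thus lay more than 2 log2 units above the highest hypoxic one. The difference was -2.90 (standard error 0.20, adjusted p = 0.000309 from limma), a ratio of normoxic to hypoxic expression of 7.46, and it passed the test in every alternative. Its hypoxic level stood at the percentile 6.92 of all rows and was not shown to be above background, so that the size of the ratio is uncertain. The symbol also stands on 1 row that carries several symbols, and the values of that row were not read here. The gene lies on chromosome 11 with 5 protein-coding genes between it and *Irgm1*, and neither an ISRE core nor GAS was found in its promoter window.

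The immunity GTPases fell into genes that were strongly lower and genes that did not pass the test. Of the 7 measured GTPases 3 were lower, 0 were higher and 4 did not pass, with a median difference of -0.67. The 3 genes that fell all belong to the immunity-related GTPase family, which in mice coats and disrupts the vacuoles of intracellular parasites such as *Toxoplasma*. *Iigp1*, an effector of this family, showed 9.81, 10.10 and 10.19 under normoxia and 8.22, 7.76 and 7.93 under hypoxia, a difference of -2.06 (standard error 0.18, adjusted p = 0.000576 from limma). *Irgm1*, a regulator that keeps the effectors inactive on the membranes of the cell itself, showed 9.23, 9.31 and 9.52 under normoxia and 7.66, 7.30 and 7.01 under hypoxia, a difference of -2.03 (standard error 0.19, adjusted p = 0.000739 from limma). The ratios of normoxic to hypoxic expression were thus 4.18 for *Iigp1* and 4.07 for *Irgm1*. *Irgm2*, another regulator, showed 8.03, 8.46 and 8.41 under normoxia and 6.88, 6.96 and 6.65 under hypoxia, a difference of -1.48 (standard error 0.17, adjusted p = 0.00124 from limma). In all 3 genes the groups of arrays did not overlap, and the calls held in every alternative.

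*Igtp*, the third regulator of this family, showed no such difference. Its expression was 7.35, 7.63 and 7.45 under normoxia and 7.41, 7.32 and 7.43 under hypoxia, with overlapping groups. The difference was -0.09 with a 95% confidence interval from -0.41 to 0.22 (adjusted p = 0.618 from limma), which leaves out a 2-fold decrease. *Igtp* and *Irgm2* are neighbors on chromosome 11 with 0 protein-coding genes between them. Their promoter stretches printed above were identical at 36 of 37 bases, and the substitution from *Irgm2* to *Igtp* was C12T, counted from 1 at the 5′ end of the stretch, which falls on one of the free letters of GAS. The change of *Irgm2* minus that of *Igtp* was -1.22, -1.19 and -1.75 in mouse 1, 2 and 3. This pair was chosen after its values were seen, so the contrast is given without a test.

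The 3 measured guanylate-binding proteins of the list, of a second family of GTPases that gather on vacuoles and bacteria, did not pass the test. *Gbp7* had the differences -1.07, -0.20 and -0.74 in mouse 1, 2 and 3, with all hypoxic arrays below the normoxic ones, and a mean difference of -0.67 (adjusted p = 0.0644 from limma), which passed in 3 of 18 alternatives (adjusted p from 0.0391 to 0.189 over all). *Gbp2* differed by 0.52 and *Gbp3* by 0.20, with adjusted p = 0.25 and 0.729 from limma. For *Gbp2* the normoxic array of mouse 1 stood at 5.45, compared to 6.72 and 6.71 in the other 2 mice, and the hypoxic arrays stood between 6.76 and 6.90. For *Gbp3* the differences within the mice ran from -0.65 to 1.29. All 6 measured GTPases with a RefSeq promoter, those that fell and those that did not, held an ISRE core.

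**Figure D2:**
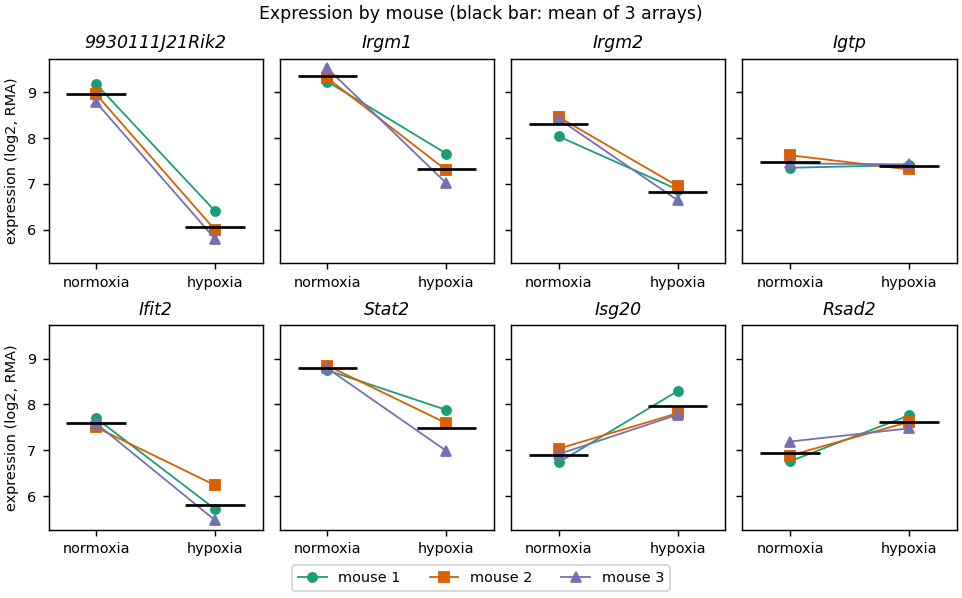
Log2 expression of 8 genes under normoxia and hypoxia, 1 panel per gene, with a point per array, lines joining the 2 arrays of a mouse, and black bars at the mean of 3 arrays. The lines of *9930111J21Rik2*, *Irgm1*, *Irgm2*, *Ifit2* and *Stat2* fall in all 3 mice, those of *Igtp* stay level and those of *Isg20* and *Rsad2* rise.

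Among the 18 measured genes of the type I response, 7 were lower, 2 were higher and 9 did not pass the test, with a median difference of -0.47. The shares of all rows were 23.9% lower and 15.5% higher. *Ifit2*, whose protein binds RNA and hinders translation of viral messages, had 7.70, 7.50 and 7.59 under normoxia and 5.72, 6.24 and 5.48 under hypoxia, a difference of -1.78 (standard error 0.21, adjusted p = 0.00132 from limma). *Ifit1*, which recognizes viral RNA without the cap methylation of host messages, had 7.05, 7.39 and 7.72 under normoxia and 6.49, 6.43 and 5.22 under hypoxia, a difference of -1.34 (standard error 0.36, adjusted p = 0.0234 from limma). The hypoxic array of mouse 3 was far below those of the other 2 mice for *Ifit1*, and in the fit blocked by mouse the gene did not pass (adjusted p = 0.0536 from limma, with 0.0145 to 0.087 over all alternatives). The hypoxic levels of *Ifit2* and *Ifit1* stood at the percentiles 3.83 and 8.80 of all rows. They were not shown to be above background, so that the sizes of both differences are uncertain.

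*Usp18* and *Trim25* also fell. *Usp18*, which cleaves the ubiquitin-like protein ISG15 from other proteins and dampens signaling at the type I receptor, had 9.48, 9.61 and 9.84 under normoxia and 8.42, 8.46 and 7.81 under hypoxia, a difference of -1.41 (standard error 0.21, adjusted p = 0.00286 from limma). *Trim25*, a ubiquitin ligase that acts on the sensor RIG-I, had 8.84, 9.09 and 9.18 under normoxia and 8.27, 8.12 and 7.60 under hypoxia, a difference of -1.04 (standard error 0.20, adjusted p = 0.00742 from limma). *Isg15* itself had 8.62, 9.16 and 9.41 under normoxia and 8.52, 8.48 and 7.61 under hypoxia, with a difference of -0.86 that did not pass (adjusted p = 0.0591 from limma). It passed in 6 of 18 alternatives, with adjusted p from 0.031 to 0.285 over all of them. All hypoxic arrays of *Isg15* lay below all normoxic ones, with differences of -0.10 in mouse 1 and -1.80 in mouse 3.

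The ADP-ribosyltransferase family members *Parp14* and *Parp9* also fell. *Parp14* had 8.24, 8.50 and 8.79 under normoxia and 7.11, 6.93 and 6.67 under hypoxia, a difference of -1.60 (standard error 0.19, adjusted p = 0.00144 from limma). *Parp9* had 7.89, 8.14 and 8.07 under normoxia and 7.43, 7.52 and 7.46 under hypoxia, a difference of -0.56 (standard error 0.13, adjusted p = 0.0138 from limma). *Ifi44*, an interferon-induced protein that restrains virus growth, had 7.45, 7.80 and 7.77 under normoxia and 7.15, 6.70 and 6.54 under hypoxia, a difference of -0.88 (standard error 0.20, adjusted p = 0.0123 from limma). In none of these 3 genes did the groups overlap. The calls of *Usp18* and *Parp14* held in every alternative and that of *Ifit2* in every one in which it was tested, whereas those of *Ifit1*, *Trim25*, *Parp9* and *Ifi44* were lost without mouse 2.

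*Isg20* and *Rsad2* were the 2 genes of this group that rose. *Isg20*, an exonuclease that degrades RNA, had 6.74, 7.04 and 6.92 under normoxia and 8.29, 7.81 and 7.78 under hypoxia, a difference of 1.06 (standard error 0.18, adjusted p = 0.00453 from limma) that held in every alternative. *Rsad2*, which encodes viperin, an enzyme that makes a chain-terminating nucleotide, had 6.76, 6.89 and 7.19 under normoxia and 7.76, 7.62 and 7.48 under hypoxia, a difference of 0.67 (standard error 0.16, adjusted p = 0.0159 from limma). The call of *Rsad2* was lost without mouse 1 or mouse 2, with adjusted p from 0.0101 to 0.128 over all alternatives. *Rsad2* holds an ISRE core and *Isg20* holds GAS, as the genes that fell do in part: an ISRE core was found in 6 of 11 genes that fell and in 8 of 18 that did not pass.

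The other members of the type I response did not pass the test in either direction. Those with a negative difference were *Oasl2* at -0.49, *Xaf1*, a partner of the apoptosis inhibitor XIAP, at -0.46, and *Bst2*, which tethers budding virus to the cell, at -0.24. Those with a positive difference were *Ifitm3*, which blocks entry of viruses, at 0.39 (adjusted p = 0.0522 from limma, past the test in 5 of 18 alternatives with a range of 0.0104 to 0.33), *Mx2*, a GTPase related to dynamin, at 0.38, *Oasl1* at 0.32, *Oas2*, a synthetase of oligoadenylates, at 0.31, and *Ifi35* at 0.04. The positive value of *Oas2* came from mouse 2, in which the hypoxic array stood at 7.73, compared to 6.26 and 6.54 in mouse 1 and 3. *Ifitm3* was the only one of these 8 in which the groups did not overlap, with 9.96 to 10.10 under normoxia and 10.32 to 10.55 under hypoxia.

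**Figure D3:**
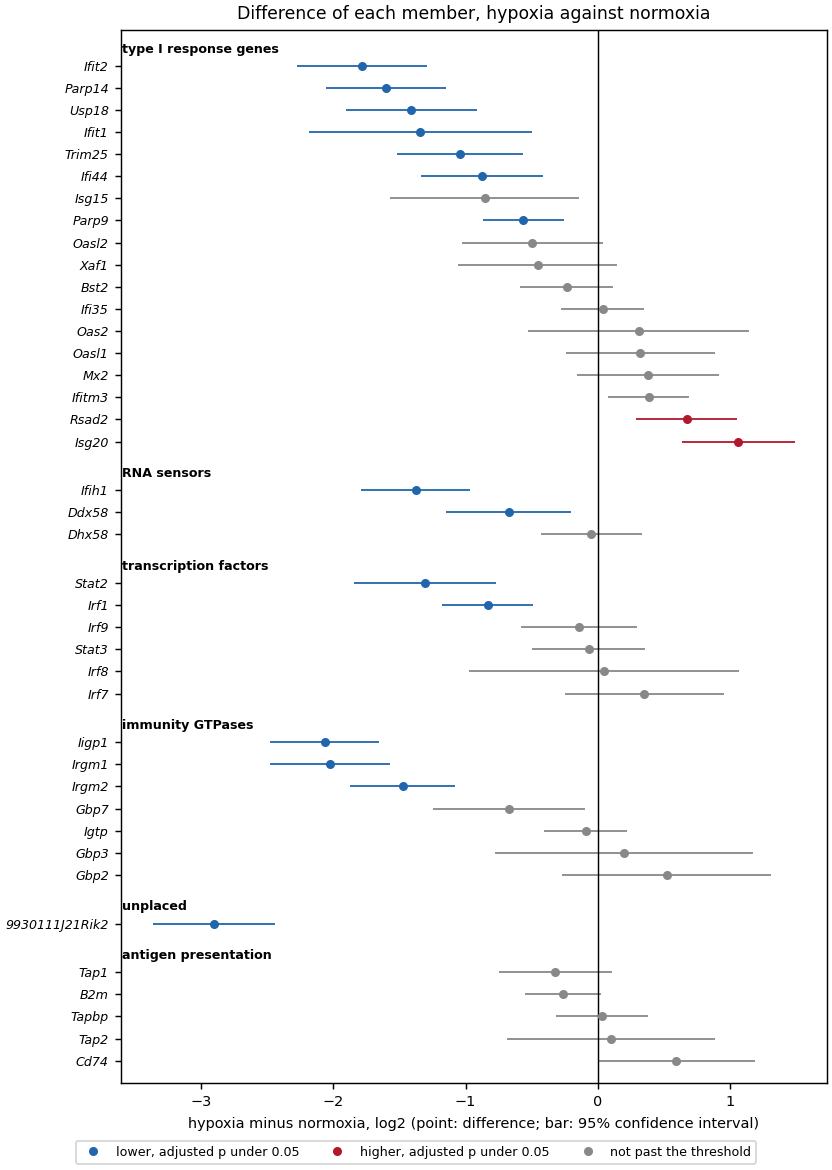
Difference between hypoxia and normoxia of each of the 40 measured genes (x axis, log2) with its 95% confidence interval, grouped by role. Blue points passed the test below 0 (15 genes), red points above 0 (*Isg20* and *Rsad2*) and grey points did not pass (23 genes).

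Of the RNA sensors, which detect viral RNA in the cytosol and start interferon production, 2 of 3 fell, beside 23.9% of all rows. *Ifih1* (MDA5) had 8.54, 8.76 and 8.54 under normoxia and 7.56, 7.11 and 7.03 under hypoxia, a difference of -1.38 (standard error 0.18, adjusted p = 0.00178 from limma) that held in every alternative. *Ddx58* (RIG-I) had 8.46, 8.87 and 8.69 under normoxia and 8.17, 8.20 and 7.63 under hypoxia, a difference of -0.67 (standard error 0.20, adjusted p = 0.0341 from limma). In the fit blocked by mouse *Ddx58* did not pass (adjusted p = 0.0515 from limma, with 0.0176 to 0.163 over all alternatives), and its call was also lost without mouse 2. *Dhx58* (LGP2), which tunes the other sensors, differed by -0.05 with overlapping groups.

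Among the 6 transcription factors *Stat2* and *Irf1* fell, beside 23.9% of all rows. *Stat2* had 8.75, 8.85 and 8.79 under normoxia and 7.88, 7.59 and 6.99 under hypoxia, a difference of -1.31 (standard error 0.23, adjusted p = 0.00487 from limma). The normoxic arrays of *Stat2* lay close together (SD 0.05, n = 3), whereas the hypoxic ones were spread more widely (SD 0.46, n = 3), with mouse 3 the lowest. *Irf1*, which drives MHC class I and many targets of type II interferon, had 6.98, 7.27 and 7.30 under normoxia and 6.46, 6.31 and 6.28 under hypoxia, a difference of -0.83 (standard error 0.15, adjusted p = 0.00484 from limma). The hypoxic level of *Irf1* stood at the percentile 10.5 of all rows and was not shown to be above background. Both calls were lost without mouse 2. *Irf9*, the partner of STAT2, differed by -0.14, *Stat3* by -0.07, *Irf8* by 0.05 and *Irf7*, which amplifies the type I response, by 0.35, and none of these passed. *Irf8* gave 5.24 to 6.42 under normoxia and 5.38 to 6.78 under hypoxia, so that the spread between mice was larger than the difference.

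None of the 5 antigen presentation genes passed the test, and their median difference was 0.03, but *B2m* was past it in 2 of the alternatives. Over the whole table, 23.9% of rows were lower and 15.5% were higher. *Tap1* and *Tap2*, the partners in the pump that carries peptides into the endoplasmic reticulum, differed by -0.32 and 0.10, with adjusted p = 0.195 and 0.832 from limma. *Tapbp* (tapasin), which bridges this pump and MHC class I, had 9.69, 9.81 and 9.91 under normoxia and 10.01, 9.85 and 9.65 under hypoxia, a difference of 0.03. *B2m*, the light chain of MHC class I, had 12.95, 12.94 and 12.96 under normoxia and 12.71, 12.75 and 12.60 under hypoxia. All hypoxic arrays of *B2m* lay below the normoxic ones, and its difference was -0.26 with a 95% confidence interval from -0.55 to 0.02 (adjusted p = 0.126 from limma). It passed as lower with the trend option of eBayes (adjusted p = 0.00501 from limma) and in the fit blocked by mouse with trend and robust eBayes (adjusted p = 0.00651 from limma), with up to 0.368 over all alternatives. For *Tap1* the interval ran from -0.75 to 0.11 and for *Tapbp* from -0.32 to 0.38, so that a 2-fold decrease lay outside the intervals of *Tap1*, *Tapbp* and *B2m*.

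*Cd74*, the invariant chain that guards the groove of MHC class II, was the fifth of these genes. It had 6.10, 6.29 and 6.12 under normoxia and 6.43, 6.51 and 7.35 under hypoxia, a difference of 0.59 (adjusted p = 0.0994 from limma). Its normoxic level stood at the percentile 5.10 of all rows and was not shown to be above background, so the size of the difference is uncertain. All hypoxic arrays were above the normoxic ones, by 0.33, 0.22 and 1.23 in mouse 1, 2 and 3, so that most of the mean difference came from mouse 3. Without the hypoxic array of mouse 1 the gene passed (adjusted p = 0.0472 from limma, with 0.0472 to 0.291 over all alternatives).

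Set side by side, the type I response genes had a median difference of -0.47, the immunity GTPases of -0.67 and the antigen presentation genes of 0.03, with -0.05 for all rows. Within mouse 1, 2 and 3 the medians were -0.17, -0.39 and -0.83 for the type I response genes, -1.07, -0.31 and -0.74 for the GTPases and 0.32, 0.04 and -0.36 for the antigen presentation genes. Mouse 3 thus had the lowest median of the type I response and antigen presentation genes, and mouse 1 that of the GTPases. Without mouse 3 the type I median was -0.19, and without the hypoxic array of mouse 1 the GTPase median was -0.42. The median of the antigen presentation genes changed sign among the alternatives, from -0.27 without mouse 1 to 0.18 without mouse 3. The differences between these medians were not tested, since the genes were not chosen independently of earlier results on these arrays. The type I genes ranged from -1.78 to 1.06 and the GTPases from -2.06 to 0.52, and the antigen presentation genes from -0.32 to 0.59, so that the ranges of the groups overlapped.

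**Figure D4:**
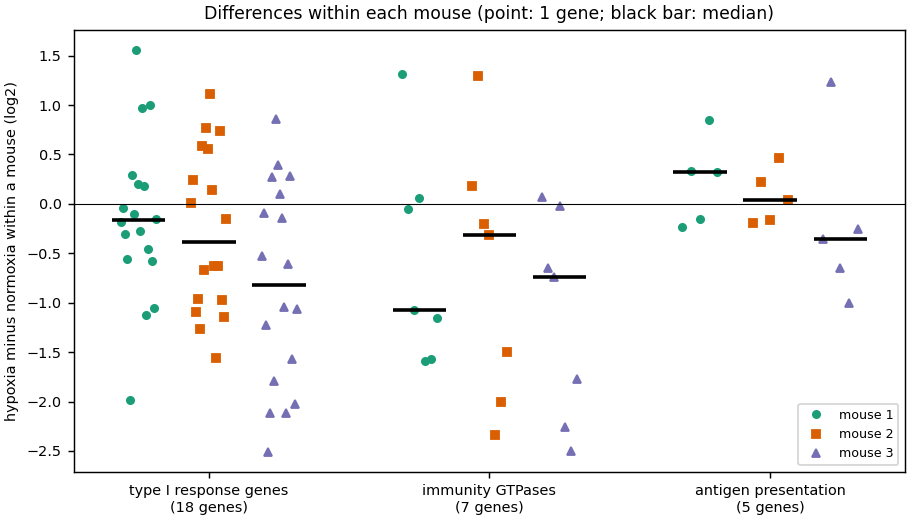
Difference between hypoxia and normoxia within a mouse (y axis, log2) for the type I response genes (18 points per mouse), the immunity GTPases (7) and the antigen presentation genes (5), with a black bar at each median. The medians of the type I genes and the GTPases lie below 0 in all 3 mice, and those of the antigen presentation genes lie at 0.32, 0.04 and -0.36.

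The genes upstream of this response were read from separate lists of the pathway. Of 10 measured receptor and kinase genes 6 were lower and 0 were higher, with 23.9% lower and 15.5% higher among all rows, as for the lists that follow. *Ifnar1* had 8.71, 8.51 and 8.79 under normoxia and 7.71, 7.32 and 7.27 under hypoxia, a difference of -1.24 (adjusted p = 0.00205 from limma), whereas *Ifnar2*, the other chain of the type I receptor, differed by -0.07 with overlapping groups. *Ifngr1* had 10.57, 10.68 and 10.77 under normoxia and 9.66, 9.62 and 9.14 under hypoxia, a difference of -1.20 (adjusted p = 0.00273 from limma), whereas *Ifngr2*, the second chain of the type II receptor, differed by -0.11. In each receptor 1 chain was thus past the test and the other was not. The change of *Ifnar1* minus that of *Ifnar2* was -0.75, -1.14 and -1.61 in mouse 1, 2 and 3, and that of *Ifngr1* minus *Ifngr2* was -0.76, -0.995 and -1.50. These pairs were chosen after their values were seen, and no test was run on them.

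*Ifnar2*, *Il10rb*, *Ifnar1* and *Ifngr2* follow each other on chromosome 16 with 0 protein-coding genes between neighbors. *Il10rb*, a chain shared by the receptors of interleukin 10 and of type III interferons, fell by 0.83 (adjusted p = 0.00928 from limma), so that the inner pair of this cluster was lower and the outer pair did not pass. The kinases *Jak2* and *Tyk2* fell by 0.96 and 0.81 (adjusted p = 0.00492 and 0.00853 from limma). *Jak1* fell by 0.41 (adjusted p = 0.0414 from limma), but its call did not hold in the fit blocked by mouse (adjusted p = 0.0742 from limma, with 0.0074 to 0.18 over all alternatives). The calls of *Jak2* and *Tyk2* were lost without mouse 2, and those of *Jak2* and *Il10rb* without mouse 3. That of *Jak1* was lost in 11 of 18 alternatives, which included each mouse left out. *Il10rb*, *Jak1* and the chains that did not pass were named after their values were seen. Of the ligands, *Ifna1*, *Ifna4* and *Il27* were measured and none passed, with differences of -0.17, -0.18 and -0.03. *Ifnb1* and *Ifng* were not analysed here.

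Of 10 measured adaptors and effectors of nucleic acid sensing 5 were lower and 0 were higher. *Ticam1* (TRIF), the adaptor of TLR3, fell by 1.07 (adjusted p = 0.00197 from limma) and *Tlr3*, an endosomal receptor of double-stranded RNA, by 0.69 (adjusted p = 0.00848 from limma). *Adar*, which edits double-stranded RNA, fell by 0.99 and *Eif2ak2* (PKR), which halts translation on sensing it, by 1.14 (adjusted p = 0.00557 and 0.00713 from limma). *Mavs*, onto which the cytosolic sensors RIG-I and MDA5 converge, was named after its value was seen. It fell by 0.43, a call that depended on the fit (adjusted p = 0.032 without and 0.0746 with a block for the mouse, from limma, with 0.0105 to 0.213 over all alternatives). The calls of *Tlr3* and *Adar* were lost without mouse 2 or mouse 3, and that of *Eif2ak2* without mouse 3. That of *Mavs* was lost in 9 of 18 alternatives, which included each mouse left out. All hypoxic arrays lay below all normoxic ones in 6 of the 10 genes, among them these 5, compared to 31.9% of all rows.

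Of 12 further response genes, 7 fell and 0 rose, beside the same 23.9% and 15.5% of all rows. The fit blocked by mouse differed for *Oas3* and *Cmpk2*, both named after their values were seen. There *Oas3*, with a difference of 0.77, passed as higher (adjusted p = 0.0369 with and 0.0722 without the block, from limma). *Cmpk2*, 1 of the 7 that fell, did not pass there (adjusted p = 0.0839 from limma). *Lgals3bp*, a secreted glycoprotein, fell by 1.61 (adjusted p = 0.0012 from limma), with 11.34, 11.42 and 11.28 under normoxia and 9.83, 9.99 and 9.38 under hypoxia. *Ube2l6*, the conjugating enzyme for ISG15, fell by 1.05 (adjusted p = 0.002 from limma). *Gbp9* fell by 0.95 and *Samhd1*, which depletes nucleotides, by 0.97 (adjusted p = 0.00222 and 0.00472 from limma). *Gbp9* was thus the guanylate-binding protein gene of the lists that passed, whereas *Gbp2*, *Gbp3*, *Gbp7* and *Gbp5*, the last named after its value was seen, did not. Among 7 other factors and inhibitors *Pias1*, a SUMO ligase that restrains cytokine signaling, fell by 0.98 (adjusted p = 0.014 from limma) and *Batf2* rose by 0.60 (adjusted p = 0.0499 from limma). The call of *Batf2* was lost in 11 of 17 alternatives, that of *Pias1* without mouse 2 or mouse 3, and that of *Samhd1* without mouse 3.

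The chemokines went the other way. *Cxcl9*, which attracts T cells and is a typical target of type II interferon, had 5.12, 5.11 and 5.47 under normoxia and 9.89, 7.78 and 8.56 under hypoxia, a difference of 3.51 (adjusted p = 0.00219 from limma). *Cxcl10*, a related chemokine with 1 protein-coding gene between the pair on chromosome 5, had 4.77, 4.89 and 5.53 under normoxia and 7.17, 7.10 and 6.54 under hypoxia, a difference of 1.87 (adjusted p = 0.00219 from limma). The normoxic levels stood at the percentiles 0.533 and 0.434 of all rows, and without background values they were not shown to be above background, so that the sizes of both differences are uncertain. Both were higher in all 3 mice, in the same cultures in which 15 of the 40 listed genes were lower.

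Of 15 genes of MHC class I and its peptide supply, 13 did not pass. The classical heavy chains *H2-K1* and *H2-D1*, named after their values were seen, differed by -0.02 and 0.03, with 95% confidence intervals from -0.32 to 0.29 and from -0.26 to 0.33. Each of these 2 genes had 2 rows, and these values are from the brighter row. With the mean of its rows *H2-K1* was at 0.20, and neither gene passed in any alternative. The differences of the list ran from -0.83 to 0.48. The exceptions were *Psmb8*, a subunit of the immunoproteasome, which fell by 0.83 (adjusted p = 0.00985 from limma), and *Erap1*, which trims peptides and was higher by 0.37 (adjusted p = 0.043 without and 0.0926 with a block for the mouse, from limma). *Psmb8* had 8.01, 8.00 and 7.96 under normoxia and 7.23, 7.43 and 6.84 under hypoxia, and lies beside *Tap1* on chromosome 17 with 0 protein-coding genes between them. Its call was lost without mouse 3, and that of *Erap1* on leaving out any 1 of the 3 mice.

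Of 6 class II genes 2 rose, *H2-Ab1* by 1.16 (adjusted p = 0.0132 from limma) and *H2-Eb1* by 0.58 (adjusted p = 0.0472 from limma), both chains of class II molecules. The call of *H2-Ab1* was lost without mouse 2, and that of *H2-Eb1* in 10 of 17 alternatives, which included each mouse left out. *H2-Ab1* had 6.60, 6.09 and 6.59 under normoxia and 8.08, 7.54 and 7.14 under hypoxia. Its normoxic level stood at the percentile 10.8 and was not shown to be above background. Genes that mark other liver cells moved beside them, in both directions. Of 5 measured macrophage markers *Cd68* (1.35) and *Marco* (0.57) were higher and *Cd14* (-0.88) was lower. The call of *Marco* was lost in 9 and that of *Cd14* in 6 of 18 alternatives. *Clec4f* (-0.17) and *Csf1r* (0.22) did not pass. The summed level of the 5 was 10.55 to 10.65 under normoxia and 11.19 to 11.28 under hypoxia on the log2 scale. Such sums add linear values, so that the brightest genes weigh most. In this sum that was *Cd68*, with means of 9.40 under normoxia and 10.75 under hypoxia. Of 5 endothelial markers 4 were higher, with a summed level of 9.75 to 10.07 under normoxia and 10.60 to 10.76 under hypoxia. *Kdr* (-0.40) did not pass, although all its hypoxic arrays lay below the normoxic ones. For 3 dendritic cell markers, of which *Xcr1* was higher, the summed level was 8.35 to 8.90 and 9.38 to 9.79, and for *Cd79b*, the measured B cell marker, the level was 6.55 to 6.77 and 7.26 to 7.80. The summed level of 4 stellate cell markers was 8.59 to 8.98 and 9.21 to 9.69. Of these *Reln* (1.70) was higher, from a normoxic level at the percentile 1.73 that was not shown to be above background. *Col1a1* (0.66), *Pdgfrb* (0.46) and *Des* (-0.19) did not pass. For 3 T and NK cell markers, of which *Nkg7* was higher, the summed level was 9.69 to 9.79 and 9.92 to 10.50. That of 5 cholangiocyte markers was lower under hypoxia, with 11.43 to 12.02 under normoxia and 10.26 to 10.67 under hypoxia. This sum was weighted by *Spp1*, which stood at 11.13 under normoxia, and the median difference of the 5 genes was 0.34. *Spp1* (-2.81) and *Sox9* (-1.14) were lower and *Krt7* (0.82) was higher, the last not in the fit blocked by mouse (adjusted p = 0.0873 from limma). *Krt19* (1.18) and *Epcam* (0.34) did not pass, but *Krt19* passed as higher in the blocked fit (adjusted p = 0.00914 from limma). The part of these other liver cells in the values of *Cd74*, the class II genes and the chemokines was not tested. In bulk RNA of this kind, fewer cells of a type and less RNA per cell cannot be told apart.

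**Figure D5:**
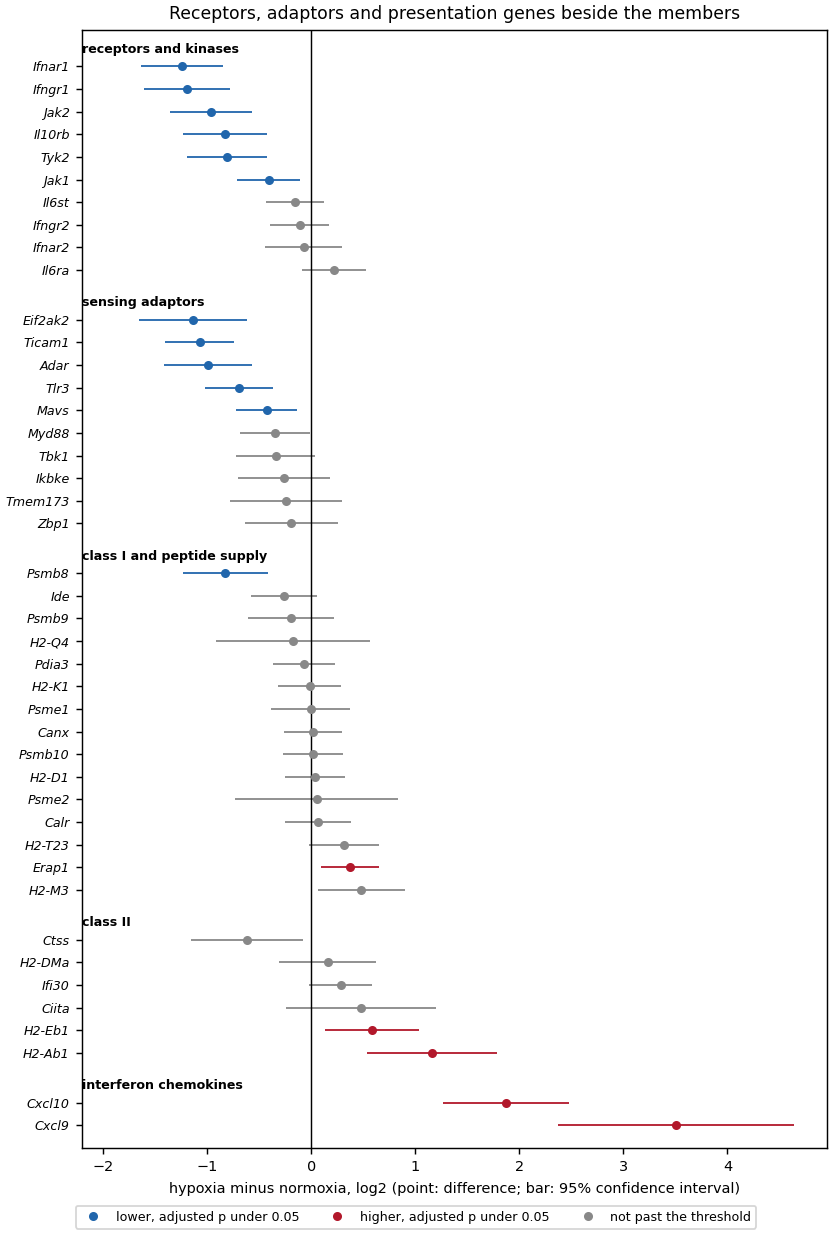
Difference between hypoxia and normoxia (x axis, log2) with its 95% confidence interval for receptors and kinases, sensing adaptors, class I genes, class II genes and chemokines. Blue points passed the test below 0, red points above 0 and grey points did not pass; 6 receptor and kinase genes and 5 sensing genes lie in blue, and *Cxcl9* and *Cxcl10* lie farthest to the right.

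As checks of the samples, *Ndrg1*, the hypoxia marker of the study, had 8.40, 8.98 and 8.66 under normoxia and 10.71, 10.63 and 10.41 under hypoxia, a difference of 1.91 (adjusted p = 0.000741 from limma). The hepatocyte markers *Alb* and *Ttr* were high in both groups (13.34 and 13.47, 12.65 and 12.85), and *Cps1* did not pass either (difference of 0.34). *Apoa1* (0.72) and *Serpina1c* (0.52) were higher, *Hnf4a* was lower (-1.03), and *Fabp1* was also higher, with 4.42 under normoxia and 7.60 under hypoxia. The normoxic level of *Fabp1* stood at the percentile 0.149 of all rows and was not shown to be above background, so the size of its difference is uncertain. The summed level of these 7 markers was 14.66 to 14.77 under normoxia and 14.94 to 14.98 under hypoxia. Array medians lay between 7.42 and 7.49, and the hypoxic arrays correlated with each other less (r across rows of 0.903 to 0.938) than the normoxic arrays did (0.958 to 0.963).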

How the data were processed

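The authors deposited RMA expression values on a log2 scale from 6 Affymetrix Mouse Gene 2.0 ST arrays, for which the submitters name oligo, and they were used as deposited. The table holds part of the array, by a rule not given in the sources used here, and no detection calls. Symbols came from the platform annotation. A row with several symbols stayed in the test without a name. Probes shared by related genes (GTPases, MHC genes) were not examined.

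The 15443 rows were fitted with limma (version 3.58.1, R 4.3.3) as lmFit and eBayes, which the methods name, on condition alone, since they state no further term, with p-values adjusted by Benjamini-Hochberg and called under 0.05. The labels name mouse 1, 2 and 3 in each condition, so arrays are paired by mouse. Within a pair, deviations from the group mean had correlations of -0.109, 0.0184 and 0.105, and blocking by mouse was an alternative. An exact permutation test of 3 against 3 arrays cannot go below p = 0.1, so none was run. All listed genes were named, those past the test with each array. From each further list counts and up to 4 genes with the smallest adjusted p were named, beside the exceptions stated and the markers.

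The members and lists were chosen with earlier results of these data known. Promoter motifs, neighbors, pairs of genes and the genes plotted by mouse were chosen after values were seen. Only the ISRE core and GAS were looked up in the genes, after 7 strings had been counted over all promoters. The fit was tested on simulated data. A first version of the simulation, with raw variances, recovered fewer changed rows in the blocked fit than required, and moderated variances were then used.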

Additional observations from a re-analysis of the deposited data

How the results depend on the processing

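The counts of higher and lower genes and the medians of the type I genes and GTPases kept their direction in all alternatives, and the median of the antigen presentation genes lay between -0.27 and 0.18. In the fit with a replicate block, which follows the pairing by mouse, 15 of the 17 calls were kept and 0 were added, so that 13 genes were lower and 2 higher (*Ifit1* and *Ddx58* were lost). With trend and robust eBayes in the blocked fit, 17 were kept and 4 added (*Isg15*, *Ifitm3*, *Gbp7* and *B2m*). The number of higher genes was 1 at an adjusted p under 0.01, 4 under 0.1 and 1 for a fold of at least 2, and it ran from 1 to 4 when an array or a mouse was left out. The number of lower genes then ran from 8 (without mouse 2) to 17. Without mouse 3, and without the normoxic array of mouse 2, 12 of the 17 calls were kept. With the lowest 25 percent of rows left out, 32 of the genes were tested, and the GTPase median was -1.07, since fewer GTPases were tested. Quantile normalization again and centring on the brighter rows moved the median of all rows from -0.05 to -0.0048 and 0.013.

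Only genes that did not pass the test changed sign. With quantile normalization again *Dhx58* was at 0.0057, *Tapbp* at -0.032, *Il27* at 0.025 and *H2-D1* at -0.058. With centring on the brighter rows *Dhx58* was at 0.013, *Il27* at 0.029 and *H2-K1* at 0.045, and with the mean of its rows *H2-K1* was at 0.20. With an array or a mouse left out, the ranges were -0.17 to 0.10 for *Dhx58*, -0.13 to 0.60 for *Oas2*, -0.064 to 0.10 for *Ifi35*, -0.34 to 0.39 for *Irf8*, -0.31 to 0.029 for *Irf9*, -0.20 to 0.081 for *Stat3*, -0.35 to 0.62 for *Gbp3*, -0.17 to 0.019 for *Igtp*, -0.27 to 0.66 for *Tap2*, -0.11 to 0.18 for *Tapbp*, -0.16 to 0.060 for *Ifnar2*, -0.36 to 0.14 for *Ifna1*, -0.16 to 0.18 for *Il27*, -0.076 to 0.051 for *H2-K1*, -0.012 to 0.11 for *H2-D1* and -0.063 to 0.18 for *Gbp5*. The cause was not tested. With 3 arrays per condition and no background values, dim genes could not be told from absent ones.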
